A study of Caenorhabditis elegans with 24 samples.

Results

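The 10 cytosolic heat shock genes described here were followed through whole-animal RNA of Caenorhabditis elegans: hsf-1, hsp-1, hsp-110, hsp-70, hsp-16.1, hsp-16.2, hsp-16.41, hsp-16.48, hsp-12.3 and hsp-12.6. They were chosen by name, and their rows were found by WormBase identifier among the 46778 genes of each of 2 count tables, where all 10 were present. The 24 libraries fall into 8 groups of 3. Both strains with ceh-60(ok1485) and a pqm-1 allele, called here the rhd90 double mutant (DLS423) and the ok485 double mutant (DLS420), and the single mutants pqm-1(rhd90) (DLS424) and pqm-1(ok485) (DLS421) were taken on adult day 1. The ceh-60(ok1485) mutant (DLS357) and the wild type strain N2 were taken on adult day 4 and on adult day 1. The labels name no heat shock for any group, and they do not say what part of a gene each allele removes. The growth protocol gives 20 degrees C for the wild type and ceh-60 animals. The products of ceh-60 and pqm-1 are transcription factors known for controlling yolk protein genes, CEH-60 a PBX-type homeodomain protein and PQM-1 with zinc fingers.

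Heat shock factor 1, encoded by hsf-1, is the transcription factor that switches on chaperone genes when proteins unfold, and in worms it also acts in development and in the control of lifespan. Its targets fall into chaperones that every cell makes all the time and chaperones that are nearly silent until stress. hsp-1 encodes the constitutive cytosolic HSP70, and hsp-110 encodes the partner that exchanges nucleotide on HSP70 and works with it in dissolving aggregates. hsp-70 encodes a heat-inducible HSP70. The hsp-16 genes encode small heat shock proteins of the alpha-crystallin family that bind unfolding proteins, they lie as divergent pairs that share a promoter region, and they are among the most strongly heat-induced genes of the worm. hsp-12.3 and hsp-12.6 encode shorter members of the small heat shock protein family that are not known as heat-induced. In worms the capacity to mount a heat shock response is known to drop early in adulthood.

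In the coordinates of WormBase release 260, hsf-1 lies on chromosome I at 11953512 to 11961984 on the minus strand and hsp-70 on the same chromosome at 9320325 to 9322534, also on the minus strand. hsp-110 lies on chromosome III at 8443917 to 8446920 and hsp-1 on chromosome IV at 17278959 to 17281330. hsp-12.3 (9444791 to 9445507) and hsp-12.6 (9446385 to 9446884) are near neighbours on the minus strand of chromosome IV. hsp-16.2 (1804334 to 1804971, minus strand) and hsp-16.41 (1805178 to 1805875, plus strand) stand back to back on chromosome V, with 206 bases between them. hsp-16.1 (9087293 to 9087782, minus strand) and hsp-16.48 (9088131 to 9088617, plus strand) form the same arrangement farther along chromosome V, beside the second copy of that pair, hsp-16.49 and hsp-16.11.

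Between 18809461 and 32598349 reads were assigned to genes per library. Levels are given as CPM, which is a count divided by the library total on a fixed scale, with library totals adjusted by the TMM method within a table, and per kilobase of exon where genes are compared with each other. Strains that carry a pqm-1 allele were counted in the second table, apart from wild type and ceh-60 animals in the first. The transcript of ceh-60 was 0.61 to 1.98 CPM over the 12 libraries with ok1485, against 4.59 to 9.10 CPM over the other 12. The transcript of pqm-1 was 4.42 to 6.15 CPM in the 6 libraries with ok485 and 13.3 to 24.97 CPM in the 6 with rhd90, against 10.8 to 11.4 CPM in wild type libraries of day 1, so that rhd90 libraries did not lie below wild type. Nothing in the labels says whether the 3 libraries of a group came from separate cultures, so p-values measure the spread between these libraries, which may be technical. In whole animals, fewer cells of a type and less RNA per cell cannot be told apart.

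In wild type of day 1, expression per kilobase separated the constitutive from the inducible genes. hsp-1 stood at 2565 ± 159 CPM per kilobase (SD, n = 3), hsp-110 at 301 ± 12.5 and hsf-1 at 63.6 ± 1.95. The short small heat shock genes followed, hsp-12.6 at 2.23 ± 0.47 and hsp-12.3 at 1.64 ± 0.29 CPM per kilobase, values that overlap within their SDs. hsp-16.2 (0.64 ± 0.59), hsp-16.41 (0.54 ± 0.41) and hsp-70 (0.38 ± 0.33 CPM per kilobase) were lowest and could not be ordered. On day 4 of wild type, hsp-1 (1553 ± 54.1), hsp-110 (179 ± 7.76) and hsf-1 (71.8 ± 2.97 CPM per kilobase) still led. hsp-16.2 (12.15 ± 7.17), hsp-16.41 (9.94 ± 5.22) and hsp-70 (9.47 ± 3.69 CPM per kilobase) now stood above hsp-12.6 (3.05 ± 0.60) and hsp-12.3 (1.29 ± 0.76 CPM per kilobase).

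**Figure D1:**
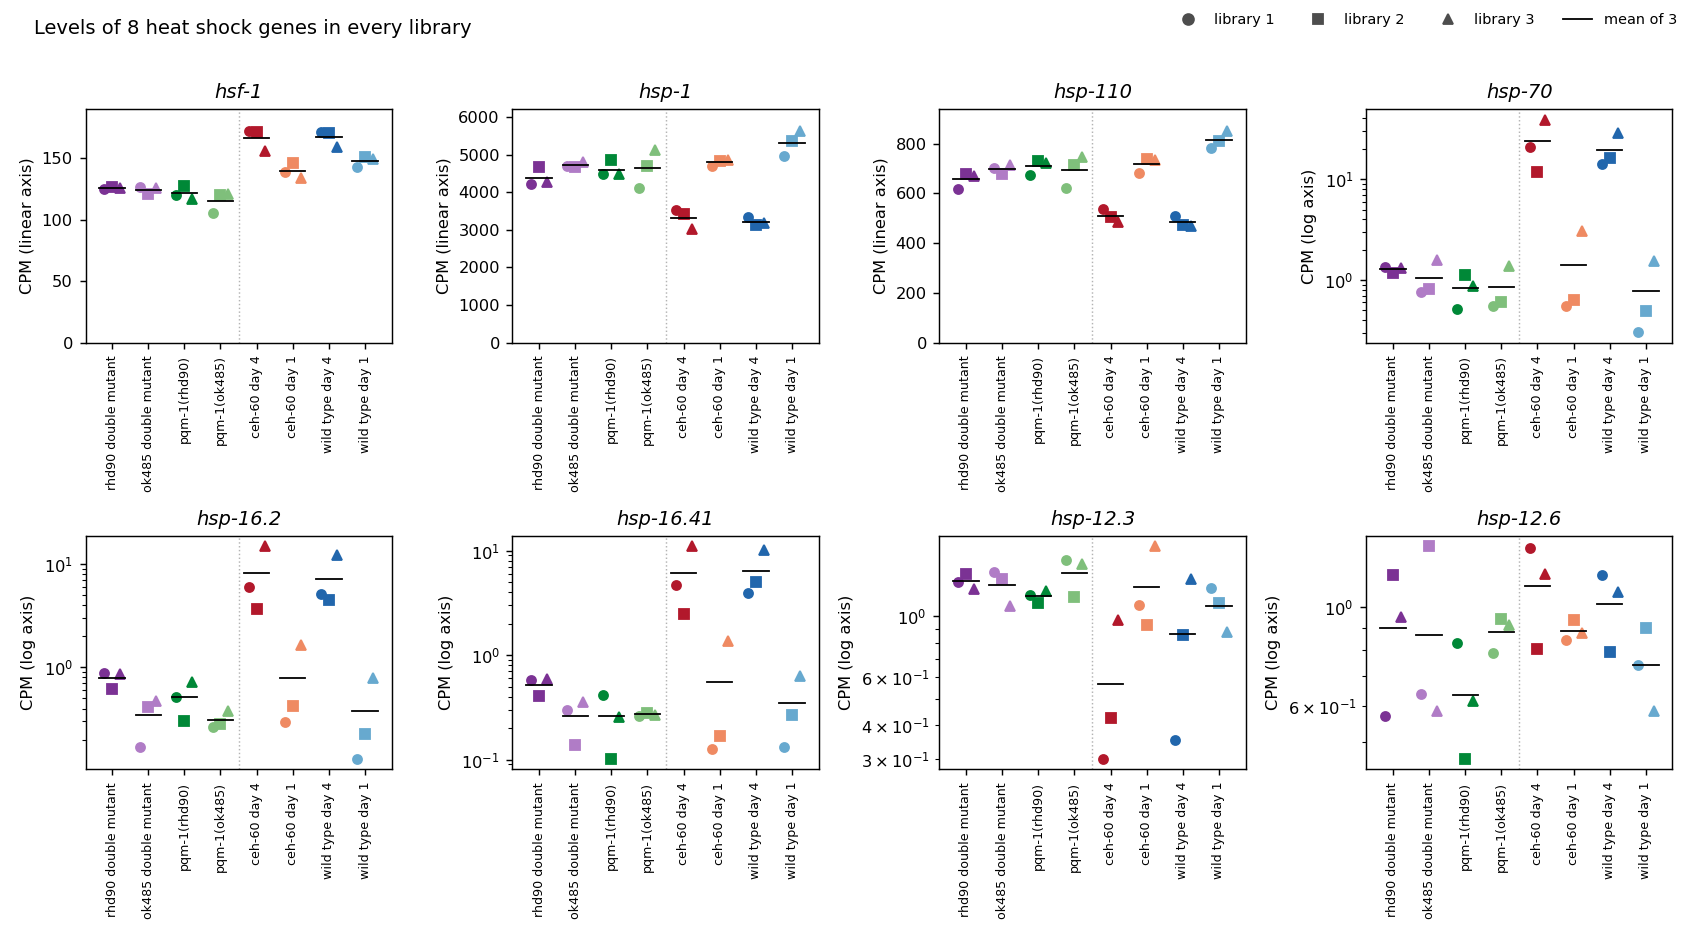
TMM-scaled CPM of the 8 heat shock genes with counts in every library, by group, with the pqm-1 table left of the dotted line and the wild type and ceh-60 table right of it. Points are libraries, shaped by replicate number, and bars are the means of 3. hsp-70, hsp-16.2 and hsp-16.41 stand highest in the 6 libraries of day 4, where hsp-1 and hsp-110 stand lowest.

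hsp-16.1 and hsp-16.48 had 0 counts in all 24 libraries. A count of 0 allows up to 3 counts, which is 0.0494 CPM over the 3 libraries of pqm-1(rhd90) and 0.0373 CPM over those of wild type day 4, the least and the most deeply sequenced groups. Their copies behaved likewise: hsp-16.49 had 0 counts and hsp-16.11 had 1 count in all. hsp-16.1 and hsp-16.11 are near-identical copies, as are hsp-16.48 and hsp-16.49, and the counting command asked for no reads that map to several places, so whether these genes were silent or their reads were left out was not tested. The other pair, hsp-16.2 and hsp-16.41, drew 1432 and 1150 counts over the 24 libraries. Of the 10 genes, 8 passed the filter on low counts in the fit of the first table and in that of all day 1 libraries, and 7 in that of the second table, where hsp-16.41 was too low. In the first table hsp-16.2 and hsp-16.41 had as few as 3 counts in a library of day 1 and hsp-70 as few as 7. There hsp-16.41 had 13 counts in wild type day 1 replicate 3 and 28 in ceh-60 day 1 replicate 3, and 3 to 6 in the other day 1 libraries. In that fit hsp-16.41 passed the filter only through its libraries of day 4, so its place among the tested genes is not independent of its rise with age.

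The inducible chaperones hsp-70, hsp-16.2 and hsp-16.41 rose on day 4 in ceh-60 mutants and in wild type, the constitutive hsp-1 and hsp-110 fell in both, and hsf-1 rose by a small amount. Of the 8 tested genes, 6 passed an adjusted p of 0.05 in each genotype, 4 higher and 2 lower. Among the 4, hsp-16.41 was kept by the filter only through its libraries of day 4. Of all 13137 genes tested, 52.6% passed in ceh-60 mutants (28.3% higher, 24.3% lower) and 54.8% in wild type (28.4% higher, 26.3% lower), so that the count of 6 of 8 is not far from that background. The median log2 fold change of the 8 genes was 0.30 in ceh-60 mutants and 0.31 in wild type, beside 0.04 and 0.02 for all genes.

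hsp-70 stood at 20.8, 11.9 and 38.8 CPM in the ceh-60 libraries of day 4, against 0.55, 0.64 and 3.07 CPM on day 1. In wild type it stood at 14.2, 16.3 and 28.3 CPM on day 4, against 0.31, 0.49 and 1.56 CPM on day 1. The ages did not overlap in either genotype, and within each group the library numbered 3 was the highest. The log2 fold change was 4.13 ± 0.60 (SE, adjusted p = 7.7e-05) in ceh-60 mutants, a 17.5-fold difference, and 4.67 ± 0.66 (adjusted p = 5.47e-05) in wild type, a 25.4-fold difference. Behind these levels were 1914 counts of hsp-70 on day 4, against 91 on day 1, over the ceh-60 libraries, and 1599 counts on day 4, against 50 on day 1, over the wild type libraries. Without ceh-60 day 1 replicate 3 the log2 fold change in ceh-60 mutants was 5.32, and without wild type day 1 replicate 3 that in wild type was 5.603.

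hsp-16.2 stood at 5.996, 3.64 and 14.8 CPM in ceh-60 mutants of day 4, against 0.30, 0.42 and 1.66 CPM on day 1. In wild type it stood at 5.06, 4.44 and 12.08 CPM on day 4, against 0.13, 0.22 and 0.78 CPM on day 1. Here too the ages were apart in both genotypes, with the library numbered 3 the highest of each group. Its log2 fold change was 3.41 ± 0.69 (adjusted p = 0.00107) in ceh-60 mutants and 4.26 ± 0.78 (adjusted p = 0.000458) in wild type, 10.6-fold and 19.2-fold. Leaving out ceh-60 day 1 replicate 3 gave 4.49, leaving out ceh-60 day 4 replicate 3 gave 2.62 and leaving out wild type day 1 replicate 3 gave 5.30.

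hsp-16.41, across the shared promoter region from hsp-16.2, stood at 4.71, 2.46 and 10.98 CPM in ceh-60 mutants of day 4, against 0.13, 0.17 and 1.36 CPM on day 1. In wild type it stood at 3.92, 4.999 and 10.2 CPM on day 4, against 0.13, 0.27 and 0.63 CPM on day 1. The order of the libraries was that of hsp-70, again without overlap between ages. The log2 fold change was 3.52 ± 0.74 (adjusted p = 0.00147) in ceh-60 mutants and 4.21 ± 0.80 (adjusted p = 0.000595) in wild type. It was 5.31 without ceh-60 day 1 replicate 3, 2.74 without ceh-60 day 4 replicate 3 and 4.96 without wild type day 1 replicate 3.

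The 3 inducible genes were also set against one another by their counts. Summed over the libraries of a group, hsp-16.41 had 0.745 counts per count of hsp-16.2 in ceh-60 mutants of day 4 and 0.686 on day 1, and in wild type 0.902 on day 4 and 0.917 on day 1. The counts of hsp-70 per count of hsp-16.2 were 2.92 on day 4 and 1.78 on day 1 in ceh-60 mutants, and 2.80 on day 4 and 2.08 on day 1 in wild type. Over all 8 groups these ratios ran from 0.50 to 0.917 for hsp-16.41 and from 1.61 to 3.04 for hsp-70, given as a description, with as few as 15 counts in a sum. They are not scaled for length, and exons span 2072 bases in hsp-70, 592 in hsp-16.2 and 640 in hsp-16.41. Per kilobase, hsp-70 did not exceed hsp-16.2 in ceh-60 mutants of day 4 (11.5 ± 6.61 against 13.7 ± 9.89 CPM).

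**Figure D2:**
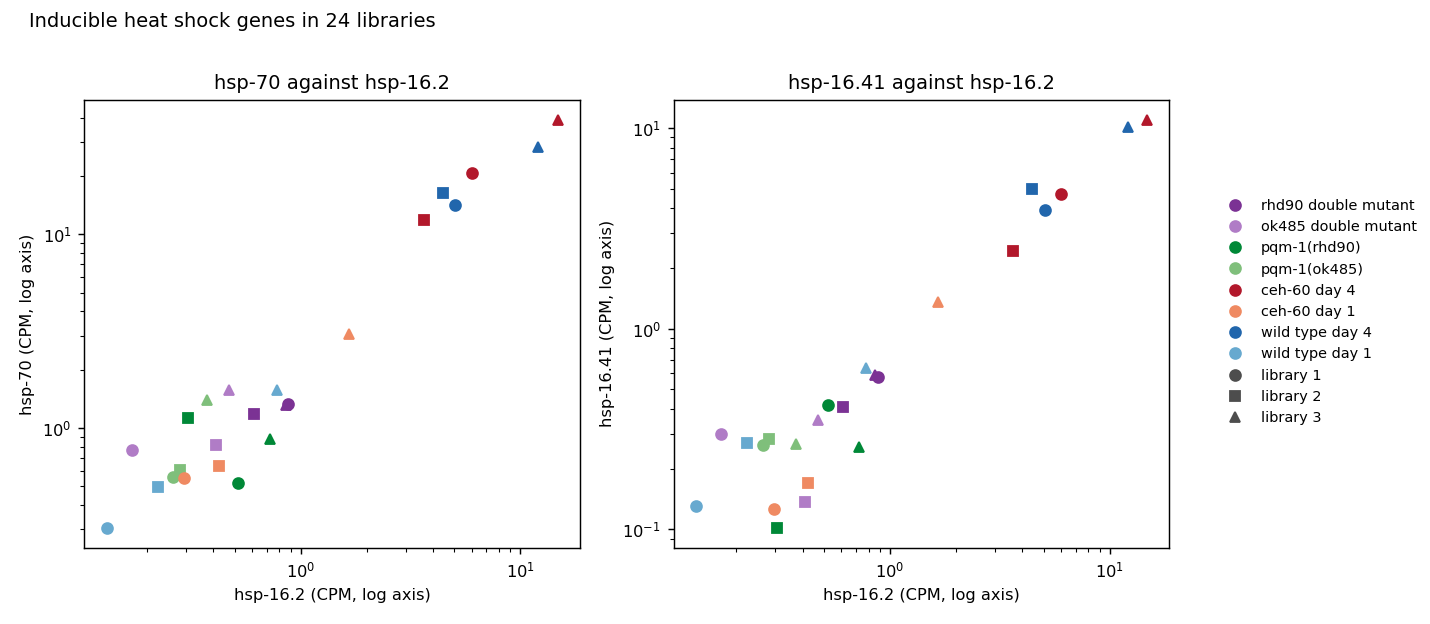
CPM of hsp-70 (left) and of hsp-16.41 (right) against CPM of hsp-16.2, with both axes logarithmic, 1 point per library. The 6 libraries of day 4 lie at the upper right, from 3.64 to 14.8 CPM of hsp-16.2, and the day 1 library next to them is ceh-60 day 1 replicate 3, at 1.66 CPM.

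The spread between libraries of the inducible genes was itself large on day 1. The highest library exceeded the lowest 5.596-fold for hsp-70 and 5.61-fold for hsp-16.2 in ceh-60 mutants, and 5.12-fold and 5.97-fold in wild type. For hsp-70, hsp-16.2 and hsp-16.41 the highest library was the one numbered 3 in all 4 groups of the first table. In the second table it was number 3 in 2 of 4 groups for hsp-70, in 3 of 4 for hsp-16.2 and in 2 of 4 for hsp-16.41. With the 4 libraries numbered 3 of the first table left out, an alternative chosen after the data had been seen, 6 of 8 genes still passed with age in wild type, and in ceh-60 mutants hsp-70 differed by 4.74 and hsp-16.41 by 4.52 on the log2 scale.

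The constitutive partners went the other way. hsp-1, by far the most abundant of the genes, stood at 3513, 3412 and 3023 CPM in ceh-60 mutants of day 4, against 4685, 4838 and 4857 CPM on day 1. In wild type it stood at 3342, 3123 and 3192 CPM on day 4, against 4963, 5372 and 5617 CPM on day 1. All libraries of day 4 lay below all of day 1. The log2 fold change was −0.53 ± 0.06 (adjusted p = 1.67e-05) in ceh-60 mutants and −0.72 ± 0.06 (adjusted p = 8.58e-07) in wild type. hsp-110 averaged 510 ± 24.9 CPM on day 4, against 719 ± 31.8 CPM on day 1, in ceh-60 mutants, and 484 ± 20.999 CPM on day 4, against 814 ± 33.9 CPM on day 1, in wild type (SD, n = 3 each). Its log2 fold change was −0.49 ± 0.05 (adjusted p = 5.41e-06) in ceh-60 mutants and −0.75 ± 0.05 (adjusted p = 1.16e-07) in wild type, again without overlap.

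The level of hsf-1 itself changed little. It stood at 172.3, 171.0 and 155.9 CPM in ceh-60 mutants of day 4, against 138.9, 145.7 and 133.8 CPM on day 1, and at 171.1, 170.2 and 158.7 CPM in wild type of day 4, against 142.6, 151.2 and 149.4 CPM on day 1. The ages did not overlap. The log2 fold change was 0.25 ± 0.05 (adjusted p = 0.000814) in ceh-60 mutants and 0.18 ± 0.05 (adjusted p = 0.00876) in wild type, or 1.19-fold and 1.13-fold. The transcript of hsf-1 does not report on the activity of its protein.

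The short small heat shock genes did not pass. hsp-12.3 stood at 0.30, 0.42 and 0.97 CPM in ceh-60 mutants of day 4, against 1.097, 0.93 and 1.80 CPM on day 1, and differed by −1.15 ± 0.49 (95% interval −2.19 to −0.10, adjusted p = 0.063). That difference passed without the filter on low counts (−1.18, adjusted p = 0.0197), without ceh-60 day 4 replicate 3 (−1.83, adjusted p = 0.0115) and without all libraries numbered 3 (−1.52, adjusted p = 0.0266). In wild type hsp-12.3 differed by −0.35 ± 0.47 (interval −1.37 to 0.66). hsp-12.6 differed by 0.34 ± 0.27 in ceh-60 mutants (interval −0.24 to 0.92) and by 0.44 ± 0.28 in wild type (interval −0.16 to 1.03). hsp-12.3 had as few as 8 counts in a library and hsp-12.6 as few as 12 in these groups, which limits the precision of both.

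**Figure D3:**
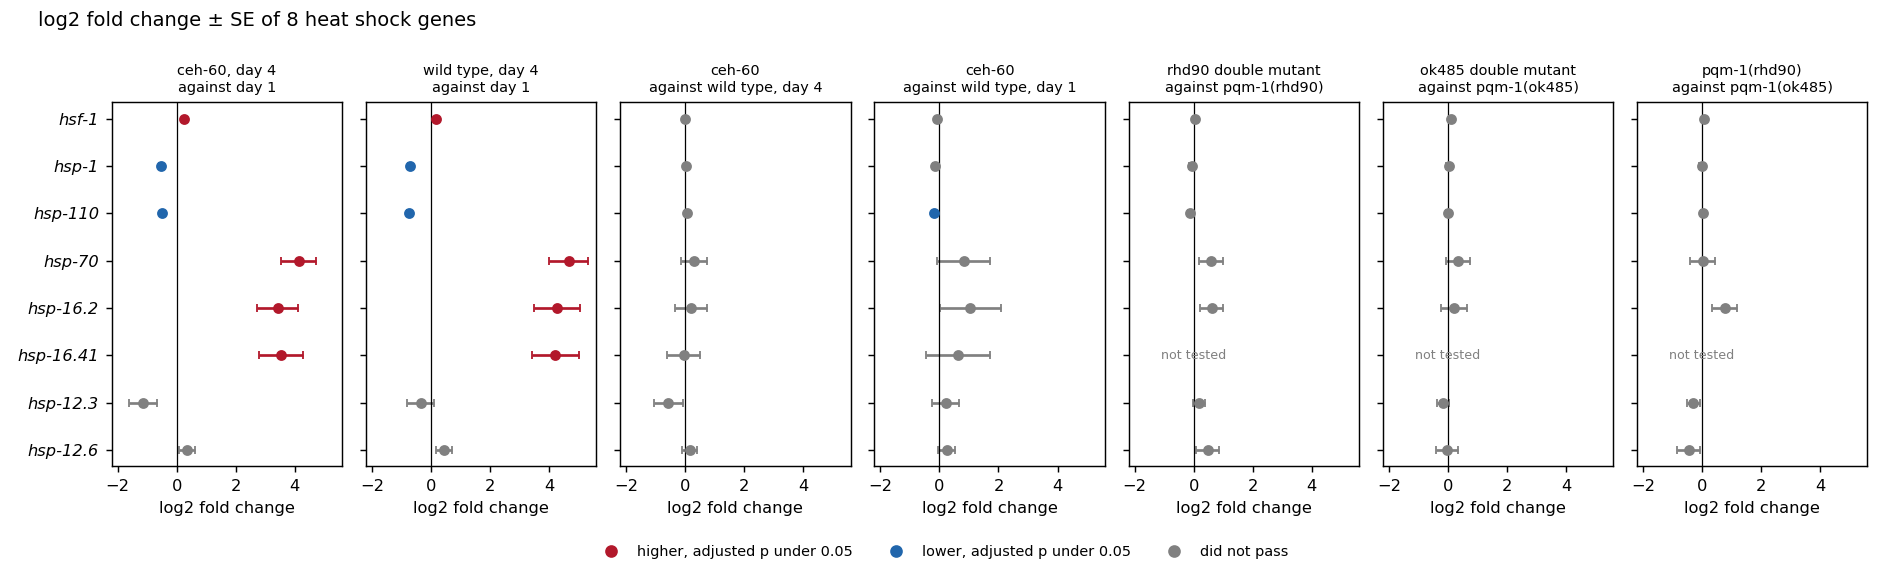
log2 fold change of each heat shock gene in 7 comparisons within a table, with the standard error as bars, positive where the group named first is higher. In the 2 panels of age, hsp-70, hsp-16.2 and hsp-16.41 lie between 3.41 and 4.67, hsp-1 and hsp-110 between −0.75 and −0.49 and hsf-1 at 0.25 and 0.18. In the other 5 panels a single gene, hsp-110 in ceh-60 against wild type on day 1, passed.

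Whether the response to age depends on ceh-60 was asked with the interaction term. No heat shock gene passed it in edgeR, where 4.04% of all genes did, and DESeq2 called 0 as well. At an unadjusted p under 0.05 there was 1, hsp-110, whose ceh-60 effect was higher on day 4 than on day 1 by 0.26 ± 0.07 (adjusted p = 0.0782). The difference was −0.54 ± 1.00 for hsp-70 (95% interval −2.71 to 1.63) and −0.85 ± 1.16 for hsp-16.2 (interval −3.35 to 1.65). These wide intervals, from the fit without replicate numbers, hold no difference and large ones in either direction. For both genes the library numbered 3 was the highest in every group of the first table. That fit counts such shared spread as noise, so the intervals do not describe differences between same-numbered libraries. For hsp-1 it was 0.19 ± 0.09 (interval −0.0029 to 0.39).

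Other genes of the cytosolic folding machinery were followed in the same comparisons. Lists of their names were compiled with earlier results of these data known. Of all genes, 24.3% fell on day 4 in ceh-60 mutants and 26.3% in wild type. The 8 subunits of the CCT chaperonin, which folds actin and tubulin, all fell on day 4 in both genotypes, with a median log2 fold change of −0.46 in ceh-60 mutants and −0.60 in wild type. cct-2 had −0.53 ± 0.06 in ceh-60 mutants and −0.72 ± 0.06 in wild type. HSP90, from hsp-90 (also named daf-21), averaged 4095 ± 235.103 CPM on day 4, against 5538 ± 198 CPM on day 1, in ceh-60 mutants, and 4172 ± 243 CPM on day 4, against 6362 ± 212 CPM on day 1, in wild type. Of HSP90 and its co-factors, 7 of 8 fell in ceh-60 mutants and 8 of 8 in wild type, sti-1, which links HSP70 to HSP90, by −0.34 ± 0.05 and −0.40 ± 0.05. Prefoldin, which hands clients to CCT, fell in 5 of 6 subunits in ceh-60 mutants and in 6 of 6 in wild type, pfd-3 by −0.41 ± 0.04 and −0.56 ± 0.04.

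Among HSP70 copies and co-factors 8 of 10 were tested, and 2 rose and 5 fell in each genotype. Beside them, 28.3% of all genes rose and 24.3% fell in ceh-60 mutants, and 28.4% and 26.3% in wild type. The J-domain co-chaperone gene dnj-19 fell by 0.40 in ceh-60 mutants and by 0.49 in wild type on the log2 scale, while of the 2 that rose, chn-1, which encodes the ubiquitin ligase CHIP, had 0.17 ± 0.04 in ceh-60 mutants and 0.25 ± 0.04 in wild type. The rise of the other, the exchange factor gene bag-1, was lost in both genotypes in DESeq2 (adjusted p = 0.0615 in ceh-60 mutants and 0.0696 in wild type), in ceh-60 mutants without ceh-60 day 4 replicate 1 (adjusted p = 0.0935), and in wild type without wild type day 1 replicate 1 (adjusted p = 0.0747). The inducible HSP70 genes F44E5.4 and F44E5.5, near copies of each other, had too few counts to test. The counting command asked for no reads that map to several places, so whether these genes were low or lost reads was not tested. Their highest sums were 15 counts each, in ceh-60 mutants of day 4, against 2 for F44E5.4 and 5 for F44E5.5 in ceh-60 mutants of day 1, and in wild type 4 and 10 on day 4, against 1 and 3 on day 1. Of these counts in ceh-60 mutants of day 4, replicate 3 held 12 for F44E5.4 and 9 for F44E5.5, and all counts of both genes in ceh-60 mutants of day 1 came from replicate 3 there.

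Of 7 other small heat shock genes tested, 2 rose and 2 fell with age in ceh-60 mutants and 3 rose and 2 fell in wild type, beside the shares of all genes (28.3% higher and 24.3% lower in ceh-60 mutants, 28.4% and 26.3% in wild type). The fall of hsp-17 in ceh-60 mutants was lost without ceh-60 day 1 replicate 1 (adjusted p = 0.0572). sip-1, a small heat shock gene that is made without stress, averaged 1479 ± 40.5 CPM on day 4, against 902 ± 68.7 CPM on day 1, in ceh-60 mutants and 1720 ± 114 CPM on day 4, against 905 ± 83.9 CPM on day 1, in wild type. hsp-25 had −1.13 ± 0.09 in ceh-60 mutants and −0.86 ± 0.09 in wild type. Of the 3 genes whose products hold HSF-1 back, hsb-1, ddl-1 and ddl-2, ddl-1 rose in ceh-60 mutants (0.37 ± 0.07) and 0 passed in wild type by edgeR and by DESeq2, with 1 at an unadjusted p under 0.05.

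**Figure D4:**
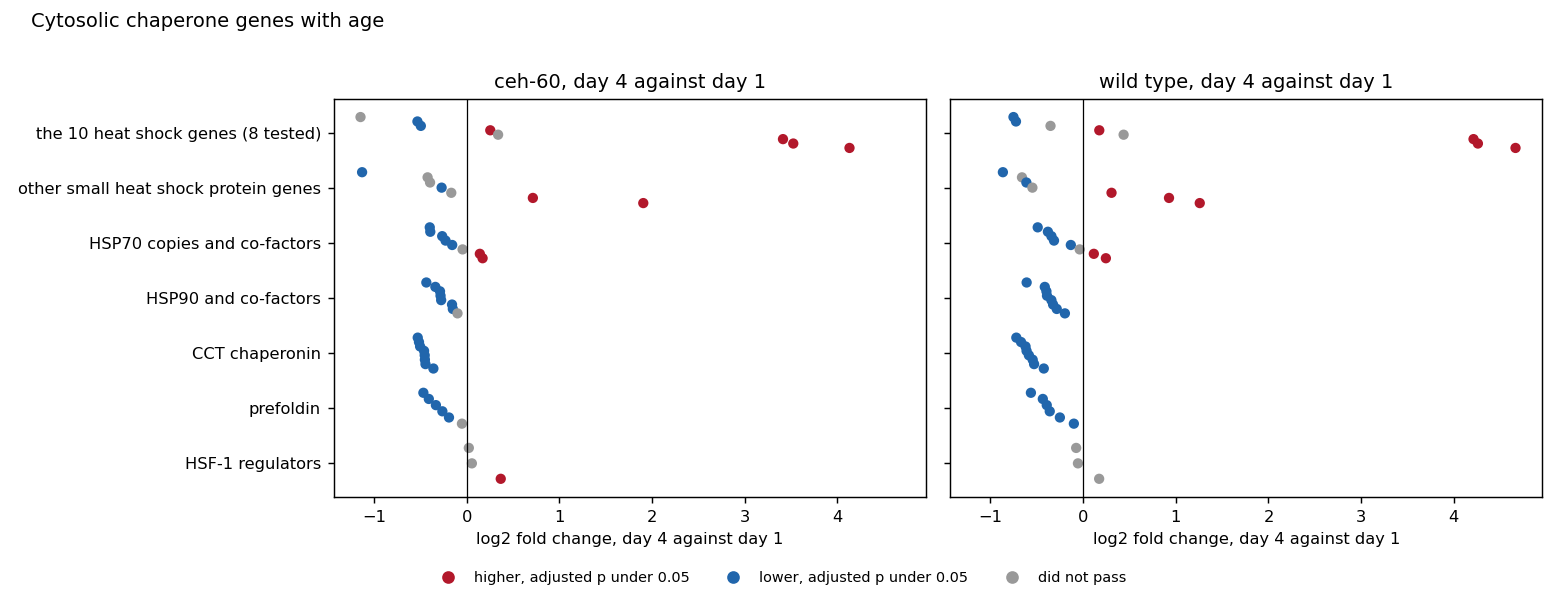
log2 fold change with age of every tested gene of the cytosolic chaperone lists, 1 point per gene, in ceh-60 mutants (left) and wild type (right). hsp-70, hsp-16.2 and hsp-16.41 stand at 3.41 to 4.67, apart from the other chaperone genes, while all 8 CCT genes lie left of 0, between −0.72 and −0.36.

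The makeup of the libraries changed with age at the same time. The marker counts that follow stand beside 28.3% of all genes higher and 24.3% lower in ceh-60 mutants, and 28.4% and 26.3% in wild type. Of 10 body wall muscle markers, 9 were lower on day 4 in ceh-60 mutants and 10 in wild type, and their summed level ranged from 788 to 931 CPM on day 4, against 2680 to 3768 CPM on day 1, in ceh-60 mutants and from 702 to 844 CPM on day 4, against 1897 to 2516 CPM on day 1, in wild type. Of 9 intestine markers, 3 were higher and 6 lower in ceh-60 mutants, 2 higher and 6 lower in wild type. The higher ones include mtl-1 in both genotypes, the gene named below as most like hsp-70 by its group means. The summed intestine level was 881 to 913 CPM on day 4, against 1690 to 2249 CPM on day 1, in ceh-60 mutants and 588 to 614 CPM on day 4, against 1179 to 1379 CPM on day 1, in wild type. Of 7 epidermis markers 2 were higher and 4 lower in ceh-60 mutants, 2 higher and 3 lower in wild type. Of 12 germline markers 2 were higher and 4 lower in ceh-60 mutants, 3 higher and 4 lower in wild type. Of 8 embryo markers 4 were higher and 1 lower in ceh-60 mutants, 4 higher and 2 lower in wild type, where med-1 and med-2 were at 0 on day 4. Of 9 neuron markers 2 were higher and 1 lower in ceh-60 mutants, 4 higher and 1 lower in wild type. Of 3 sperm markers tested, 3 were lower in ceh-60 mutants, with a median log2 fold change of −4.67, and 1 was lower in wild type, with a median of −0.64. The summed level of all 7 sperm markers was 2.37 to 3.21 CPM on day 4, against 4.45 to 9.65 CPM on day 1, in ceh-60 mutants, where msp-3 was at 0 on day 4, and 3.57 to 7.73 CPM on day 4, against 6.49 to 13.3 CPM on day 1, in wild type. The part of tissue makeup in the changes of the heat shock genes was not tested. Animals of day 4 were also washed off and moved to new plates each day, by the growth protocol, so that age and handling cannot be told apart.

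In ceh-60 mutants against wild type of day 1, 1 of 8 heat shock genes passed, hsp-110, where 25.5% of all genes did. It stood at 682.0, 739.7 and 734.1 CPM in ceh-60 mutants, against 782.9, 809.0 and 850.1 CPM in wild type, without overlap, a log2 fold change of −0.18 ± 0.05 (adjusted p = 0.0241). That call was lost without wild type day 1 replicate 2 (adjusted p = 0.0695), without wild type day 1 replicate 3 (adjusted p = 0.121), without ceh-60 day 1 replicate 1 (adjusted p = 0.13), without the filter on low counts (adjusted p = 0.0656) and without the libraries numbered 3 (adjusted p = 0.118). hsp-1 differed by −0.15 ± 0.06 (adjusted p = 0.0993), again without overlap, and passed in DESeq2 (adjusted p = 0.0498). hsp-70 differed by 0.83 ± 0.90 (95% interval −1.11 to 2.77), hsp-16.2 by 1.04 ± 1.03 and hsp-16.41 by 0.63 ± 1.09. Both hsp-70 and hsp-16.2 were higher in ceh-60 mutants in every same-numbered pair of libraries. In replicates 1, 2 and 3, hsp-16.2 stood at 0.30, 0.42 and 1.66 CPM, against 0.13, 0.22 and 0.78 CPM in wild type. For hsp-16.41 only the pair numbered 3 was higher. Over all genes, deviations of same-numbered libraries correlated here by −0.03 to 0.18. hsf-1 differed by −0.08 ± 0.05 (interval −0.19 to 0.03).

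On day 4, 0 of 8 passed in edgeR, where 24.4% of all genes did, and 0 in DESeq2 or at an unadjusted p under 0.05. hsp-70 differed by 0.29 ± 0.45 (interval −0.67 to 1.26), hsp-16.2 by 0.20 ± 0.53 and hsp-16.41 by −0.05 ± 0.55. For the abundant genes the intervals were narrow: hsf-1 −0.11 to 0.10, hsp-1 −0.10 to 0.18 and hsp-110 −0.04 to 0.19 on the log2 scale.

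A small heat shock gene outside the 10, hsp-17, was higher in ceh-60 mutants at both ages. It averaged 35.04 ± 3.30 CPM in ceh-60 mutants, against 25.7 ± 0.94 CPM in wild type, on day 4, and 42.3 ± 4.34 CPM in ceh-60 mutants, against 20.8 ± 0.41 CPM in wild type, on day 1. The log2 fold change was 0.45 ± 0.08 (adjusted p = 0.00128) on day 4 and 1.02 ± 0.08 (adjusted p = 1.3e-06) on day 1. It also rose in the rhd90 double mutant over pqm-1(rhd90) (1.60 ± 0.19) and in the ok485 double mutant over pqm-1(ok485) (1.24 ± 0.19). Of the intestine markers, 7 of 9 were higher in ceh-60 mutants on day 4 and 6 of 9 on day 1, where 8 of 10 body wall muscle and 3 of 7 epidermis markers were higher too. The part of these markers in the differences of hsp-17 and of the genes that follow was not tested. On day 1, ceh-60 mutants had 2 of 7 other small heat shock genes higher, hsp-17 and hsp-25, and 0 lower. Of 8 CCT genes 3 were lower and of 8 genes of HSP90 and co-factors 2 were lower, where 25.5% of all genes passed, and these 5 calls were lost without wild type day 1 replicate 2, without wild type day 1 replicate 3 and without ceh-60 day 1 replicate 1. No prefoldin gene passed in edgeR or in DESeq2, with 2 of 6 at an unadjusted p under 0.05. Of 8 tested HSP70 copies and co-factors, 1 was higher and 3 were lower in edgeR (4 calls by DESeq2). Of the 3 genes whose products hold HSF-1 back, 1 was lower in edgeR (0 by DESeq2). On day 4, where 24.4% of all genes passed, 3 of 7 other small heat shock genes were higher and 1 was lower. DESeq2 called 3 of the 7, and 6 had an unadjusted p under 0.05. Of 8 HSP70 copies and co-factors, 1 was higher and 2 were lower (2 by DESeq2, 5 at an unadjusted p under 0.05). In edgeR 0 of 8 CCT genes passed (1 by DESeq2, 1 at an unadjusted p under 0.05). Of HSP90 and co-factors 0 of 8 passed (0 by DESeq2 and 0 at an unadjusted p under 0.05). The prefoldin genes and the 3 that hold HSF-1 back had 0 calls by either tool.

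The effect of ceh-60(ok1485) was also measured on top of each pqm-1 allele. In the rhd90 double mutant against pqm-1(rhd90), 0 of 7 passed in edgeR, where 11.9% of all genes did, with 0 in DESeq2 and 0 at an unadjusted p under 0.05. hsp-70 stood at 1.33, 1.18 and 1.31 CPM in the rhd90 double mutant, against 0.52, 1.12 and 0.88 CPM in pqm-1(rhd90). These ranges were apart, but the difference of 0.60 ± 0.41 had an interval of −0.28 to 1.48. In the ok485 double mutant against pqm-1(ok485), 0 of 7 passed in edgeR, where 8.97% of all genes did, with 0 in DESeq2 and 0 at an unadjusted p under 0.05. There hsp-70 stood at 0.77, 0.82 and 1.56 CPM in the ok485 double mutant, against 0.56, 0.61 and 1.39 CPM in pqm-1(ok485), ranges that overlapped, with a difference of 0.35 ± 0.40 (interval −0.53 to 1.23). hsp-70 was higher in the ok485 double mutant in 3 of 3 numbered pairs, and with replicate numbers as a block it differed by 0.34 (adjusted p = 0.509). With that block, 2160 of all genes passed in that comparison, against 1195 without it, and still 0 heat shock genes.

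The pqm-1 alleles were compared directly within the second table. Between pqm-1(rhd90) and pqm-1(ok485), 0 of 7 heat shock genes passed in edgeR, where 7.39% of all genes did, with 0 in DESeq2 and 0 at an unadjusted p under 0.05. The block gave 2069 calls over all genes, against 984 without it, and 0 among the heat shock genes. Between the rhd90 and the ok485 double mutants, 0 of 7 passed in edgeR, where 14.3% did, with 0 in DESeq2 and 1 at an unadjusted p under 0.05. That was hsp-16.2, which stood at 0.88, 0.61 and 0.86 CPM in the rhd90 double mutant, against 0.17, 0.41 and 0.47 CPM in the ok485 double mutant. The libraries did not overlap, and the log2 fold change was 1.15 ± 0.40 (adjusted p = 0.0731), on 54 and 25 counts in all. Its neighbour hsp-16.41, too low for the test, had 36 counts in the rhd90 double mutant and 19 in the ok485 double mutant.

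Whether the ceh-60 effect differed between backgrounds was asked 3 times. Between the rhd90 and the ok485 backgrounds, 0 of 7 heat shock genes passed in edgeR, where 0.345% of all genes did, with 0 in DESeq2 and 0 at an unadjusted p under 0.05. Between the rhd90 and the wild type backgrounds, 0 of 8 passed (0.272% of all genes; 0 in DESeq2 and 0 at an unadjusted p under 0.05). Between the ok485 and the wild type backgrounds, 0 of 8 passed (4.43% of all genes; 0 in DESeq2 and 1 at an unadjusted p under 0.05). The 1 was hsf-1, at 0.21 ± 0.09 (interval 0.02 to 0.40, adjusted p = 0.188). For hsp-70 the intervals were wide, from −2.16 to 1.64 for rhd90 and from −2.37 to 1.43 for ok485 against the wild type background.

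Comparisons of pqm-1 strains with wild type or with the ceh-60 mutant cross the tables, so that table and genotype cannot be told apart. hsf-1 stood at 119.7, 127.2 and 117.1 CPM in pqm-1(rhd90) and at 105.6, 120.1 and 120.5 CPM in pqm-1(ok485), against 142.6, 151.2 and 149.4 CPM in wild type of day 1, each table scaled on its own. Both sets lay below all wild type libraries. In the fit of all 18 libraries of day 1, hsf-1 was the single heat shock gene of 8 to pass, with −0.21 ± 0.07 in pqm-1(rhd90) (adjusted p = 0.0269), where 28.2% of all genes passed, and −0.31 ± 0.07 in pqm-1(ok485) (adjusted p = 0.00173), where 47.7% passed. The call in pqm-1(rhd90) was lost without its replicate 1 (adjusted p = 0.0894) and without its replicate 3 (adjusted p = 0.108). In pqm-1(ok485), hsp-110 had −0.18 ± 0.08 (adjusted p = 0.0641), which passed in DESeq2 (adjusted p = 0.045) and without pqm-1(ok485) replicate 3 (adjusted p = 0.0306). Against the ceh-60 mutant, 0 of 8 passed in edgeR in the rhd90 double mutant, where 9.85% of all genes did, and 0 of 8 in the ok485 double mutant, where 14% did, with 0 in DESeq2 and 0 at an unadjusted p under 0.05 in both. hsf-1 differed there by −0.09 ± 0.06 and −0.10 ± 0.06.

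For the 4 heat shock genes with a mean of at least 5 CPM, the genes whose 8 group means on the log2(CPM + 0.1) scale followed them most closely were found among 12704 candidates tested in all 3 fits. These correlations over 8 means are a description, and the means share the split of the libraries into 2 tables and 2 ages. Most like hsp-70 were mtl-1 (Pearson r = 0.996), a metallothionein gene of the intestine, Y37A1A.4 (0.993) and D2030.2 (0.992). mtl-1 averaged 27.4 ± 8.87 CPM in ceh-60 mutants of day 4, against 0.35 ± 0.14 CPM on day 1, and 29.2 ± 11.99 CPM in wild type of day 4, against 0.17 ± 0.17 CPM on day 1. Most like hsp-1 were inf-1 (0.999), eif-3.J (0.999) and atad-3 (0.999), and most like hsp-110 were csr-1 (0.998), eif-3.C (0.997) and mrps-27 (0.997). Most like hsf-1 were sup-17 (0.994), C25A11.2 (0.992) and pigv-1 (0.989). inf-1, eif-3.J and eif-3.C encode translation initiation factors, csr-1 an Argonaute protein of the germline and sup-17 a metalloprotease of the ADAM family.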

How the data were processed

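RNA of whole animals was sequenced in 24 libraries, 8 groups of 3. The deposited values are raw read counts per gene in 2 tables, 1 of wild type and ceh-60 libraries and 1 of libraries with a pqm-1 allele. STAR 2.5.4 is named in the submitters' processing notes, and per the file headers featureCounts 1.5.2 counted them on WormBase release 260 annotation with no option for strand, multi-mapping or overlapping genes. Genes were named by the symbols of a gene name list (43818 identifiers with a symbol). Shared or absent symbols, such as those of hsp-16.1 and hsp-16.48, were matched by RefSeq symbol and position.

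Counts were tested with edgeR 4.0.16 in R 4.3.3 (filterByExpr, TMM, quasi-likelihood F-test, Benjamini-Hochberg adjustment over all genes, threshold 0.05) in 3 fits: each table (13137 and 13324 genes) and the 18 libraries of day 1 (13589 genes). A standard error is the absolute log2 fold change over the square root of F. The fits were also run on simulated counts, with changes in a single group and no effect of replicate number. No result here rests on that run. Alternatives were other size factors, DESeq2 1.42.0, no filter, the compared groups alone, a replicate block and leaving out libraries. The list genes opt-2 and ssp-9 were not matched.

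The members and lists were chosen with earlier results of these data known. All 10 heat shock genes are described, and other genes are named by their list or, for likeness, as the 3 highest correlations. Replicate numbers come from the labels. Deviations of same-numbered libraries correlated above 0.1 in every pair for the ok485 double mutant with pqm-1(ok485) (0.173 to 0.486) and for pqm-1(rhd90) with pqm-1(ok485) (0.125 to 0.473), and not in every pair for the other comparisons. Replicates of a group differed by more than sampling noise, with a chi-square per degree of freedom of at least 3.50. Floors of 3 counts cover counting error only.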

Additional observations from a re-analysis of the deposited data

Results flagged for a closer look

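No heat shock gene of the 10 differed in its ceh-60 effect between the ages by edgeR, with 0 also by DESeq2 and 1 at an unadjusted p under 0.05. Among the other chaperone genes a difference appeared for hsp-17 and dnj-13. For hsp-17 the ceh-60 effect was 0.45 ± 0.08 on day 4 and 1.02 ± 0.08 on day 1, a difference of −0.58 ± 0.12 (adjusted p = 0.0139) that passed under 17 of 17 alternatives, between −0.70 and −0.50. For dnj-13, a J-domain co-chaperone gene, the ceh-60 effect was 0.14 ± 0.05 (adjusted p = 0.0559) on day 4 and −0.16 ± 0.05 (adjusted p = 0.0259) on day 1. The day 1 call was lost without the filter (adjusted p = 0.0983), with only the groups compared (0.064), without wild type day 1 replicate 2 (0.065) or 3 (0.143), without ceh-60 day 1 replicate 1 (0.139) or 2 (0.0502) and without the libraries numbered 3 (0.0969). The difference between the ages was 0.30 ± 0.07 (adjusted p = 0.0279) and passed under 7 of 17 alternatives, between 0.23 and 0.33, with adjusted p up to 0.105.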

How the results depend on the processing

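The 6 heat shock genes called with age in each genotype were called under all alternatives run, with hsp-70 between 3.55 and 5.32 in ceh-60 mutants and between 4.27 and 5.603 in wild type. Other size factors changed no call among the 10 genes. No result changed direction past the threshold. The shares that follow are percentages of all genes tested that passed. Without the filter on low counts, 0 heat shock genes passed in ceh-60 mutants against wild type on day 1. More genes were then tested, and 3.86% passed the age interaction (905 genes, against 531 with the filter), 0.421% the difference of ceh-60 effects between the pqm-1 alleles and 0.641% that between the rhd90 and wild type backgrounds. DESeq2 called 2 heat shock genes in ceh-60 mutants and 2 in pqm-1(ok485) against wild type of day 1. It called 0.893% of genes for the difference between alleles, 6.77% for ok485 and 0.743% for rhd90 against the wild type background. With only the compared groups, 4.95% passed between the pqm-1 single mutants, 2.89% for ok485 against the wild type background and 33.4% in pqm-1(ok485) against wild type. The replicate block gave 16.21% for the ok485 double mutant against pqm-1(ok485), 15.5% between the pqm-1 single mutants and 24.6% between the double mutants, where 1 heat shock gene, hsp-16.2, passed (1.18, adjusted p = 0.0273). It gave 1.81% for the difference between alleles, 13.2% for ok485 and 2.44% for rhd90 against the wild type background. Under the block hsp-12.3 passed with age in ceh-60 mutants (−1.20, adjusted p = 0.026), and no other call among the 10 genes changed within a table. In the 4 comparisons of pqm-1 strains with wild type or ceh-60, a block within each table cannot be separated from the table. A replicate block shared across tables, chosen after seeing the data, called 2 heat shock genes in pqm-1(ok485), hsf-1 and hsp-110 (adjusted p = 0.0202), and changed no other call among the 10 genes. Without the libraries numbered 3, chosen after seeing the data, 0 heat shock genes and 15.4% of all genes passed in ceh-60 mutants on day 1, and 1.78% passed the age interaction. The causes were not tested.

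Leaving out 1 library at a time gave 14.1% to 25.7% in ceh-60 mutants against wild type on day 1, 18.2% to 23.3% on day 4 and 2.26% to 4.24% for the age interaction. It gave 44.3% to 48.5% with age in ceh-60 mutants and 47.4% to 49.4% in wild type, 7.82% to 10.8% for the rhd90 double mutant against pqm-1(rhd90), and 5.40% to 8.16% for the ok485 double mutant against pqm-1(ok485). Between the pqm-1 single mutants it gave 1.36% to 16.13%, the extremes without pqm-1(rhd90) replicate 3 and without pqm-1(ok485) replicate 1, and between the double mutants 6.94% to 15.5%. The difference between alleles ranged from 0.103% to 0.730%, that of ok485 from 1.59% to 7.54% and that of rhd90 from 0.1003% to 0.498% against the wild type background. Across tables it gave 32.8% to 42.8% for pqm-1(ok485) and 18.3% to 26.8% for pqm-1(rhd90) against wild type, 4.91% to 13.5% for the ok485 and 3.42% to 10.7% for the rhd90 double mutant against ceh-60. Heat shock genes called ranged from 0 to 1 in ceh-60 mutants against wild type on day 1, from 6 to 7 with age in ceh-60 mutants and 6 to 6 in wild type, from 1 to 2 in pqm-1(ok485) and 0 to 1 in pqm-1(rhd90) against wild type, and 0 to 0 elsewhere. For the calls of other chaperone genes, each counted once per library left out, the call held in 781 refits and did not in 197. On day 1, hsp-70 and the hsp-16 and hsp-12 genes that were counted had 2 to 63 counts a library, which limits what could be detected.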

Other observations

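Other cytosolic chaperone genes differed across the tables, where table and genotype cannot be told apart. All 8 CCT genes were lower than in wild type of day 1 in pqm-1(rhd90), with a median log2 fold change of −0.24, where 28.2% of all genes passed, and in pqm-1(ok485), with a median of −0.29, where 47.7% passed. Of 12 germline and oocyte markers, 6 were lower in pqm-1(rhd90) (median −0.26) and 8 in pqm-1(ok485) (median −0.28). In pqm-1(rhd90), 6 of 9 intestine, 3 of 8 epidermis, 6 of 9 neuron and 0 of 10 body wall muscle markers were higher by edgeR. In pqm-1(ok485), 6 of 9 intestine, 7 of 8 epidermis, 7 of 9 neuron, 7 of 10 body wall muscle and 5 of 6 sperm markers were higher. In each strain 1 neuron marker was lower. The part of these markers in the result was not tested. Of HSP90 and its co-factors, 6 of 8 were lower in pqm-1(rhd90) and 8 of 8 in pqm-1(ok485), where hsp-90 had −0.34. In pqm-1(rhd90) the calls of cct-7 and cct-8 were lost without its replicate 1 (adjusted p = 0.0891 and 0.0731) and those of cct-6 and cct-7 without its replicate 3 (adjusted p = 0.051 and 0.102), and that of cct-7 also without wild type day 1 replicate 3 (adjusted p = 0.0541).

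Within the second table hsp-17 averaged 63.6 ± 11.3 CPM in the rhd90 double mutant, against 37.7 ± 6.77 CPM in the ok485 double mutant (SD, n = 3 each), a log2 fold change of 0.76 ± 0.18 by edgeR (adjusted p = 0.0152). That call was lost without ok485 double mutant replicate 2 (adjusted p = 0.0729) or 3 (0.0661) and without rhd90 double mutant replicate 1 (0.0771) or 3 (0.056).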
